A study of Onthophagus taurus with 66 samples.

Results

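The gene described here encodes an insulin-like receptor of the bull-headed dung beetle *Onthophagus taurus*, followed through transcript XM_023058767.1 in the developing dorsal head. This transcript is 1 of 23725 in the table and was taken because its product is annotated as insulin-like growth factor 1 receptor isoform X4, with Insulin-like receptor as its best hit in *Drosophila*. Its name came from a list of transcripts called between the lateral pieces of male heads. It was thus selected on the difference in counts between male LatA and LatP libraries, and every difference between regions or between sexes that uses these is given as a description, with no test. Left and right pieces entered that choice alike, so differences between the sides of a region were tested.

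Dorsal heads of 6 males and 5 females were cut into 6 pieces, giving 66 libraries. The pieces are the left and right lateral anterior (LatA), the left and right lateral posterior (LatP), the medial anterior (MA) and the medial posterior (MP) head. All animals were untreated pre-pupae of laboratory colonies started from wild beetles, taken shortly before the larval cuticle is shed and already apolysed from the head capsule. A sixth female was dropped by the study after mapping. In this species males grow a pair of horns from the posterior head, whereas females grow a ridge there, so the LatP pieces of males hold the horn-forming tissue. The dissection left an epithelial sheet, with eye, brain and muscle remnants cut away.

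The insulin-like receptor is a receptor tyrosine kinase of the cell surface. When it binds insulin-like peptides it signals through the adapter Chico, the lipid kinase PI3K and the kinase AKT, which holds the transcription factor FOXO out of the nucleus and activates growth through TOR. In insects the pathway ties the growth of organs to nutrition, and in the rhinoceros beetle *Trypoxylus dichotomus* knockdown of the receptor reduced the growth of the horn.

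The gene, LOC111425015, has 4 transcripts in the table, XM_023058764.1 to XM_023058767.1, and 6 in the RefSeq annotation of assembly IU_Otau_3.0. Short reads from shared exons cannot be placed on 1 of these transcripts, and the authors' program divided them by estimate. The levels are therefore given both for XM_023058767.1, called X4 here, and for the sum of the 4 transcripts, which does not depend on that division. Levels are given as CPM, the count set relative to the library total and corrected with TMM factors for differences in composition between libraries, and the lateral pieces of an animal are averaged.

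Library totals ran from 10807956 to 17048942 counts, with a median of 13246361. The sum of the 4 receptor transcripts held 11 to 357 counts per library, with a median of 55, so it was measured well above a floor of 3 counts (0.176 to 0.278 CPM) in all 66 libraries. Counting alone still leaves a wide error at the low end of this range. Some pieces of 1 male stand apart and touch the anterior values. On a scale that runs from 0 for the MA profile to 1 for the LatA profile of the other males, over the 200 transcripts that differed most between these, the right LatA piece of male 1 scored 0.267 and the MA piece of the same animal 0.734. The other male MA pieces scored 0.425 to 0.553, near the middle of the scale. Between male LatA and MA, 0 of 13158 transcripts passed in edgeR and 57 in DESeq2, so the scale places a piece only roughly. The left LatA piece of male 1 was also low, at 0.414, while the LatA pieces of the other males scored 0.531 to 0.881. The lowest of these, the right LatA piece of male 4, lay within the range of the other male MA pieces.

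The mean of X4 was higher in both posterior regions than in both anterior regions of each sex, and highest in the posterior head of males. In males it averaged 15.97 ± 6.18 CPM (SD, n = 6 animals) in LatP and 11.03 ± 6.37 CPM in MP, against 1.05 ± 0.587 CPM in LatA and 1.79 ± 1.22 CPM in MA. In females it averaged 3.88 ± 0.578 CPM (SD, n = 5 animals) in LatP and 4.19 ± 2.67 CPM in MP, against 1.28 ± 1.06 CPM in LatA and 1.27 ± 1.38 CPM in MA. The count of X4 was above 0 in each of the 33 posterior libraries. It was at 0 in 11 of the 33 anterior libraries, 5 of them female and 6 male.

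**Figure D1:**
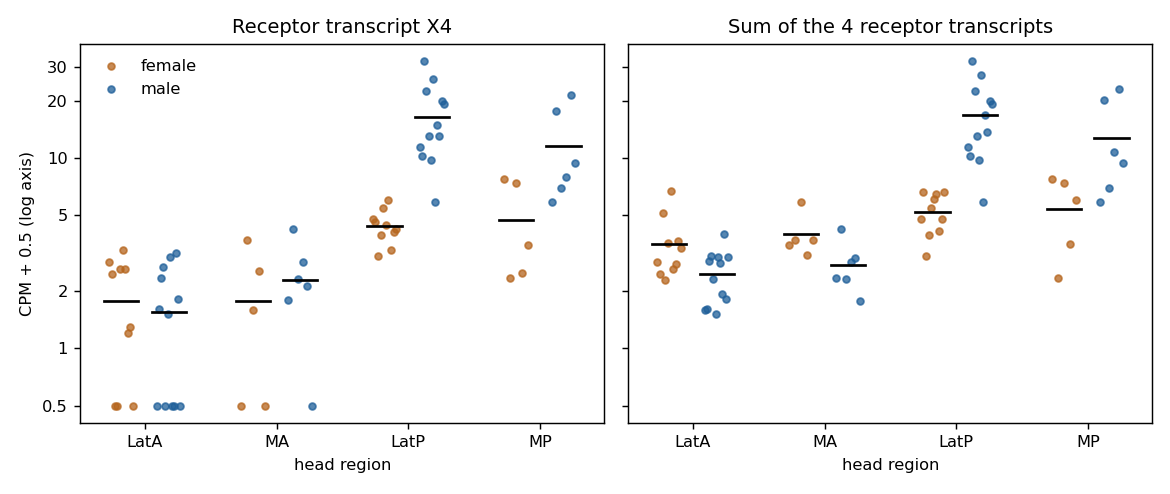
Level of the insulin-like receptor in each library, as CPM + 0.5 on a log axis, for transcript X4 (left) and for the sum of the 4 transcripts of the gene (right), by head region and sex. Points are libraries and black lines are means over animals. The highest libraries of both panels are male LatP and MP, whose lowest libraries (5.34 and 5.39 CPM) overlap female ones, and the X4 libraries at 0 are all in LatA or MA.

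A count of 0 for X4 did not mean that receptor reads were missing. In those 11 libraries the 4 transcripts together held 11 to 70 counts, or 1.09 to 4.60 CPM, and the reads had been assigned to the other 3. In 9 of the 11, a single other transcript took them all. Across all libraries, 39 of 66 had exactly 1 receptor transcript above 0, and in 30 of these it was X4. The sum was a whole number within 0.02 in all 66 libraries, so within that tolerance no part of a read was shared with another gene.

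The share of receptor counts assigned to X4 also differed along the axis of the head. Summed over libraries, X4 took 97.8% of the receptor counts of male LatP and 90.8% of those of male MP. It took 53.8% in male LatA and 80.3% in male MA. In females the shares were 81.7% in LatP and 84.4% in MP, against 40.7% in LatA and 36.5% in MA. Transcripts XM_023058764.1 and XM_023058766.1 received most of the rest in female LatA, with 36.3% and 19.6% of the counts. XM_023058765.1 was above 0 in 3 of 30 female and 2 of 36 male libraries. These shares are estimates from few reads that jump between libraries of 1 region, and no test was made on them.

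**Figure D2:**
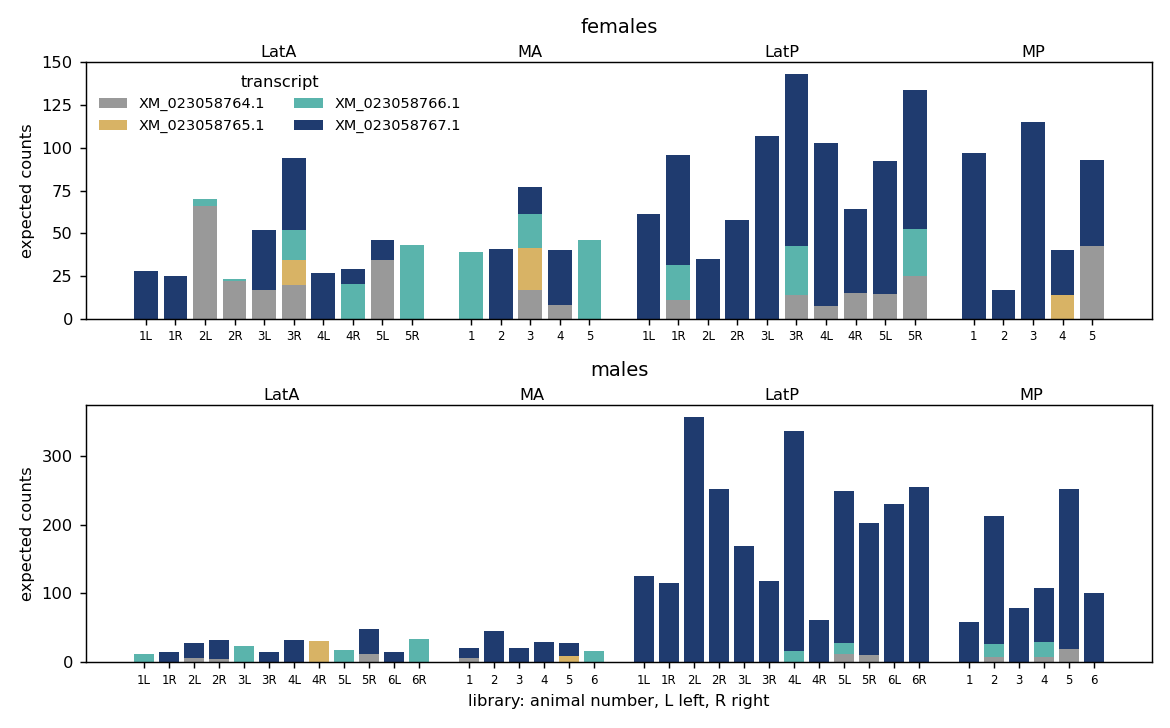
Expected counts of the 4 receptor transcripts, stacked, in each library of females (top) and males (bottom), by region, animal and side. The vertical scales of the panels differ. Dark blue, XM_023058767.1 (X4), fills most of every male LatP bar, while short anterior bars change colour from library to library.

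The order of the 8 groups by gene sum ran from male LatP, at 16.3 ± 6.09 CPM (SD, n = 6), to male LatA, at 1.95 ± 0.588 CPM. Male MP came next to male LatP with 12.2 ± 7.12 CPM. Female MP and female LatP followed with 4.90 ± 2.38 and 4.68 ± 0.966 CPM (n = 5). Below them stood female MA with 3.46 ± 1.08 CPM, female LatA with 3.04 ± 1.017 CPM and male MA with 2.24 ± 0.840 CPM. Every group overlapped the next in this order when animals were compared. The lowest male LatP animal, at 10.3 CPM, was nevertheless above the highest female value of any region, 7.27 CPM. In pieces of tissue such as these, more cells that express the receptor and more receptor RNA per cell cannot be told apart.

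The male LatP libraries, which chose the transcript, are described first. Their gene sum ran from 5.34 through a median of 14.7 to 31.7 CPM over 12 libraries, and that of male LatA from 1.01 through 2.05 to 3.50 CPM. The ranges did not overlap, in a contrast where 5.28% of transcripts and 7.79% of gene sums passed, and within each of the 6 males LatP exceeded LatA by 5.97- to 10.9-fold. Fitted across all transcripts, the log2 fold change (log2FC) of LatA over LatP in males was -3.93 for X4 (SE 0.651) and -3.05 for the gene sum (SE 0.271). The larger value of X4 accompanies its zeros in LatA. Without the right LatA piece of male 1, X4 gave -3.93 (SE 0.684).

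The same contrast in females did not pass the test. The LatA gene sums of the 5 females were 2.14, 3.19, 4.65, 2.20 and 3.02 CPM, and their LatP gene sums, in the same order, were 5.20, 2.99, 5.28, 4.78 and 5.17 CPM. LatP was higher in 4 of 5 animals, by up to 2.43-fold, and the second female had slightly less in LatP than in LatA (0.937-fold). The log2FC of LatA over LatP was -1.60 for X4 (SE 0.690, edgeR adjusted p = 0.232) and -0.60 for the gene sum (SE 0.229, adjusted p = 0.130), both short of the threshold of 0.05. Of all transcripts tested in this contrast 3.63% passed, and of all gene sums 6.05%. This outcome depended on the scaling. Female LatP libraries had the highest median TMM factor, 1.41, and with plain library totals the gene sum gave -1.07 (adjusted p = 0.00791) while the median over all transcripts moved from -0.03 to -0.49.

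The medial pieces were not used to choose the transcript, and in males they showed the same direction. Gene sums in male MA ran from 1.28 through a median of 2.08 to 3.72 CPM, and in male MP from 5.39 through 9.59 to 22.5 CPM. The ranges did not overlap. MP exceeded MA in 6 of 6 males, by 2.95- to 9.09-fold. The log2FC of MA over MP was -2.44 for the gene sum (SE 0.398, edgeR adjusted p = 0.00367), which passed the threshold together with 5.22% of the 10176 gene sums tested. In males the gene sum was planned as an alternative to X4, not as a test of its own. For X4, the planned test, the log2FC was -2.62 (SE 0.709), which did not pass in edgeR (adjusted p = 0.0813) and passed in DESeq2 (adjusted p = 0.00189). Of the 12485 transcripts tested in this contrast, 2.85% passed in edgeR (356) and 924 passed in DESeq2. Male 6, whose MA piece had all 16 of its receptor counts on XM_023058766.1, decided the edgeR call of X4: without that animal the log2FC was -2.40 (adjusted p = 0.0424). The gene sum passed without any single male, male 1 included (adjusted p = 0.00508).

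Among the females the medial contrast was not resolved. The MA gene sums of the 5 females were 2.98, 3.22, 5.33, 2.57 and 3.20 CPM, and the MP gene sums were 7.27, 1.85, 6.86, 3.01 and 5.52 CPM. MP was the higher piece in 4 of 5 animals, by up to 2.44-fold, and the second female was again the exception, with 0.575 times its MA value. The log2FC of MA over MP was -0.49 for the gene sum (SE 0.372, edgeR adjusted p = 0.907) and -1.69 for X4 (SE 1.18, adjusted p = 0.978). In this contrast 0.593% of the transcripts and 1.08% of the gene sums passed.

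Whether the medial change differed between the sexes was tested directly, a comparison added after the values had been seen. The MP to MA ratio of the gene sum was 0.575 to 2.44 in the 5 females and 2.95 to 9.09 in the 6 males, without overlap. On the log2 scale the male mean exceeded the female mean by 1.95 (exact permutation test over animals, two-sided p = 0.00216, the smallest that 462 permutations can give). Without male 1 the difference was 2.10 (exact permutation p = 0.00794, 252 permutations). Both p-values describe a separation of ratios that was seen before the test was added, and are no independent support. The medial pieces also come from the same males whose lateral pieces chose the transcript. The interaction term of edgeR was 1.94 for the gene sum (SE 0.558, unadjusted p = 0.00232), but over all gene sums its adjusted p was 1.00, and 0% of the 11075 gene sums passed, with 328 under an unadjusted p of 0.05. For X4 the interaction was 0.93 (SE 1.301, adjusted p = 1.00).

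**Figure D3:**
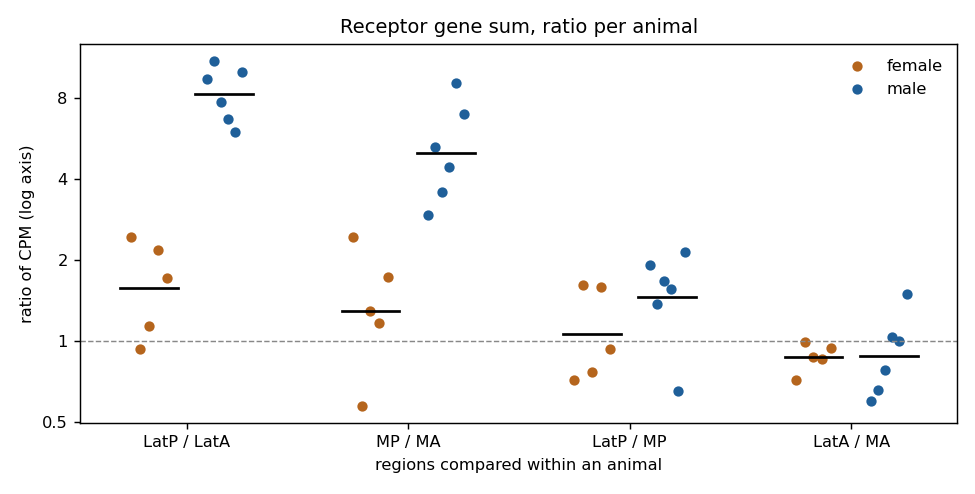
Ratio of the receptor gene sum between 2 regions of the same animal, on a log axis, for females and males. Points are animals, black lines are geometric means, and the dashed line marks a ratio of 1. Both posterior to anterior ratios of the 6 males lie above those of the 5 females, whereas LatP to MP and LatA to MA ratios of the sexes overlap.

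Within the posterior head the receptor was not restricted to the lateral, horn-forming pieces. The LatP to MP ratio of the gene sum was 0.653 to 2.14 in males, above 1 in 5 of 6, and 0.715 to 1.62 in females, above 1 in 2 of 5. In males the log2FC of LatP over MP was 0.54 for X4 (SE 0.354) and 0.42 for the gene sum (SE 0.355), given without a test. In females it was -0.09 for X4 (SE 0.324, edgeR adjusted p = 0.968) and -0.07 for the gene sum (SE 0.292, adjusted p = 0.950), where 3.44% of transcripts and 5.95% of gene sums passed. The sign of the female value turned with the animal as block and with library totals.

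The anterior pieces likewise lay close together. The LatA to MA ratio of the gene sum ran from 0.717 to 0.993 in the 5 females and from 0.599 to 1.49 in the 6 males. The female log2FC was 0.00 for X4 (SE 1.31, edgeR adjusted p = 1.00) and -0.18 for the gene sum (SE 0.296, adjusted p = 1.00), a contrast in which 0.0298% of transcripts and 0.037% of gene sums passed. Male values were -0.78 for X4 (SE 1.11) and -0.20 for the gene sum (SE 0.287), described without a test.

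The largest fitted difference between the sexes lay in LatP. There the log2FC of males over females was 2.06 for X4 (SE 0.251) and 1.85 for the gene sum (SE 0.258), again a description because male LatP chose the transcript. Differences between the sexes were widespread in LatP, where 1975 of 14494 transcripts passed in edgeR and 2640 in DESeq2. With library totals the X4 value was 1.302, while the median over all transcripts moved from -0.08 to -0.80. In MP males were higher by 1.42 for X4 (SE 0.505, edgeR unadjusted p = 0.0169, adjusted p = 0.550) and by 1.34 for the gene sum (SE 0.463, adjusted p = 0.426), which did not pass. Of all transcripts 0.0949%, and of all gene sums 0.145%, differed between the sexes in MP. In the anterior head the gene sum leaned the other way, with -0.63 in LatA (SE 0.251, described only) and -0.61 in MA (SE 0.288, adjusted p = 0.810). In MA 0% of transcripts passed in edgeR, with 690 under an unadjusted p of 0.05 and 67 passing in DESeq2. For X4 the MA value was 0.49 (SE 1.31, adjusted p = 1.00), opposite in sign to the gene sum.

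**Figure D4:**
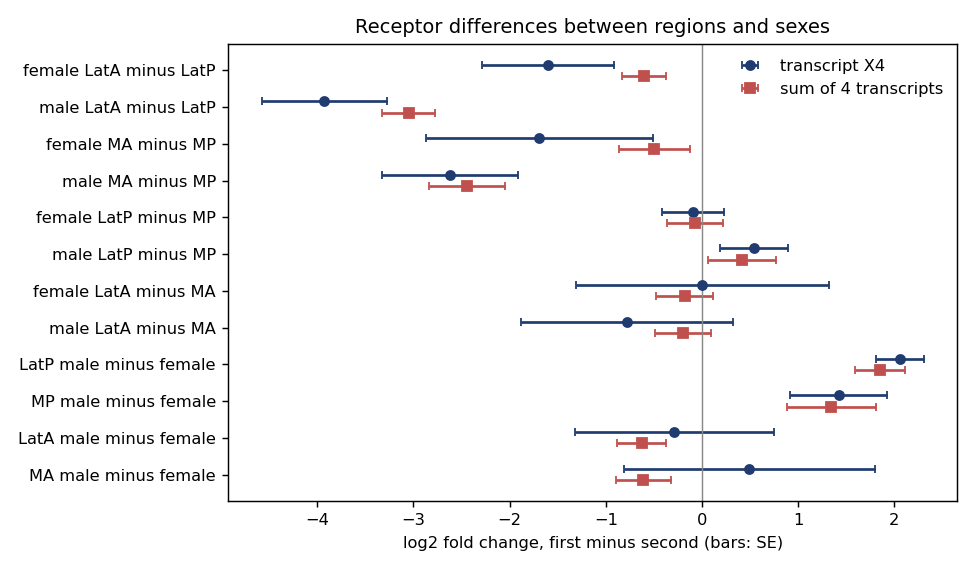
Fitted log2 fold changes of the receptor for 12 contrasts between regions and sexes, first group minus second, for transcript X4 (circles) and the sum of the 4 transcripts (squares). Bars are standard errors. The male posterior to anterior contrasts and the LatP difference between the sexes are farthest from 0, and the X4 values carry wider errors wherever an anterior region takes part.

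Left and right pieces gave no difference that passed. In males the left LatP piece held more receptor than the right in 6 of 6 animals, with ratios of the gene sum from 1.05 to 4.99. Its log2FC was 0.59 (SE 0.352, edgeR unadjusted p = 0.117, adjusted p = 1.00). The largest ratio belonged to male 4, with 26.6 CPM on the left and 5.34 CPM on the right, from 337 and 61 counts. The other 5 males lay between 1.05 and 1.45. In females the left LatP piece was higher in 1 of 5 animals, and LatA showed the left piece higher in 3 of 5 females and 2 of 6 males. In each of these 4 contrasts 0% of transcripts passed in edgeR, with 254 to 319 under an unadjusted p of 0.05 and 12 to 27 passing in DESeq2.

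Animals also differed in their overall receptor level. Averaged over the 4 regions, the gene sum was 2.81 to 5.53 CPM in females and 4.67 to 13.1 CPM in males. The posterior to anterior ratio ran from 5.38 to 8.75 in males and from 0.755 to 2.44 in females. Female 2 had the lowest posterior levels of all animals, 2.99 CPM in LatP and 1.85 CPM in MP, and was the only animal with less receptor in the posterior than in the anterior head (0.755-fold).

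By the median of libraries, eye markers stood highest in LatP and muscle markers in MP, in both sexes. A list of 7 eye and photoreceptor transcripts, including chaoptin, an adhesion protein of photoreceptors, and arrestin, which shuts off the visual response, summed to 11.5 to 144 CPM in male LatP and 29.5 to 99.5 CPM in female LatP. In MP the same sum was 1.91 to 7.54 CPM in males and 1.07 to 3.92 CPM in females, and in MA 2.11 to 4.21 and 1.52 to 4.05 CPM. The member with the highest mean in LatP, annotated as a chorion peroxidase, averaged 24.48 CPM there in females and 15.45 CPM in males. Its means of 2.08 to 2.50 CPM in MA and MP lay close to the median sums there, 2.20 to 2.60 CPM. The single listed transcript of glass, a transcription factor of photoreceptors, was at 0 in every MA and MP library (XM_023044973.1, glass-like isoform X2), and other transcripts of that gene were not summed. The median eye sum in LatP was 45.5 CPM in males and 70.7 CPM in females. The part of eye RNA in the receptor values of LatP was not tested. A list of 9 muscle transcripts, among them tropomyosin and troponin C, summed to 48.0 to 768 CPM in male MP against 7.68 to 46.95 CPM in male MA, and to 27.9 to 908 CPM in female MP against 22.96 to 767 CPM in female MA. None of the 9 was at 0 throughout a region. The part of muscle RNA in the receptor values of MP was not tested. In male LatP, where the receptor was highest, the muscle sum was 10.97 to 58.2 CPM. Both lists were matched through names of transcripts that the study had called on these samples. Markers of epidermis, neurons, glia, hemocytes and fat body found no match there, so the epithelial label was not checked here.

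Of a list of insulin pathway genes, 1 transcript besides the receptor could be matched by name, XM_023048998.1, annotated as an acid labile subunit. In vertebrates this protein holds insulin-like growth factors in a complex in the blood. Its profile was unlike that of the receptor. It stood highest in MA, with 12.7 ± 7.71 CPM in females (SD, n = 5) and 10.7 ± 8.52 CPM in males (n = 6), and lowest in LatP, with 1.44 ± 0.383 and 1.26 ± 0.142 CPM. LatA held 5.15 ± 3.41 CPM in females and 3.01 ± 1.51 CPM in males, and MP 1.96 ± 0.563 and 2.03 ± 0.570 CPM. As its name came from the study's own calls, no test is given. The core of the pathway, from Chico to TOR, could not be followed by name and was not analysed here. Names were at hand only for transcripts that the study had called, so any other insulin-like receptor gene could not be sought.

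The clearly expressed neighbour of the receptor gene did not share its profile. A transcript of LOC111425065, which overlaps the gene in IU_Otau_3.0, reached at most 0.329 CPM in any library. The noncoding LOC111425016, which lies within it, reached at most 0.0892 CPM. At these levels no profile could be compared. The neighbouring LOC111425018 was nearly level across the head, with group means from 9.38 to 13.1 CPM.

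The transcripts whose levels most resembled X4 were sought over the 66 libraries among 15441 others, as Pearson correlations of log2(CPM + 1) and as a description, since libraries of 1 animal and 1 region share their source. The closest to X4 was XM_023053510.1, homeobox protein OTX2 isoform X3, a relative of the head patterning factor orthodenticle (r = 0.833). Its means were 46.7 CPM in male LatP and 38.2 CPM in male MP, against 7.5 CPM in male LatA and 8.99 CPM in male MA. In females it stood at 22.7 CPM in LatP and 36.2 CPM in MP. Next came XM_023059729.1, of an uncharacterized protein (r = 0.790), XM_023064084.1, serine protease 7-like (r = 0.769), XM_023056543.1 (r = 0.757) and XM_023058579.1 (r = 0.755). XM_023059729.1 resembled the receptor in males, with 120 CPM in LatP, 67.7 CPM in MP, 24.6 CPM in LatA and 29.1 CPM in MA, but was level in females at 20.2 to 25.7 CPM. Against the gene sum in place of X4, XM_023059729.1 came first (r = 0.847) and the OTX2 transcript had rank 4 (r = 0.780).

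With animal means removed from the levels, another set led. XM_023060299.1 came first (r = 0.878), followed by XM_023062938.1, G-protein coupled receptor Mth2-like (r = 0.861), XM_023050422.1, venom serine protease Bi-VSP-like (r = 0.858), XM_023065450.1 (r = 0.852) and XM_023050743.1 (r = 0.852). The Mth2-like receptor averaged 20.4 CPM in male LatP and 15.9 CPM in male MP, against 3.28 CPM in male LatA and 3.08 CPM in male MA. Its female means were 7.68 CPM in LatP, 6.80 CPM in MP, 3.61 CPM in LatA and 3.39 CPM in MA. The Bi-VSP-like transcript shared the anterior to posterior step but not the male excess, with female and male means of 133 and 121 CPM in LatP and of 210 and 115 CPM in MP.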

How the data were processed

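RNA of each dissected piece was sequenced as single-end reads of stranded poly(A) libraries. Per the labels and the study's methods, the authors used Trimmomatic 0.32 for trimming, Bowtie2 2.3.2 for alignment to annotated transcripts, and RSEM 1.3.0 for quantification. The values are estimated counts per transcript that the authors deposited as RSEM gave them, without normalization. The strand setting of RSEM is not given in the sources used here.

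After rounding, counts were fitted with edgeR 4.0.16 under R 4.3.3, using TMM factors, the quasi-likelihood F-test and Benjamini-Hochberg adjustment over all transcripts above 1 CPM in at least 2 libraries compared. A value passed at an adjusted p under 0.05. As in the study, regions were compared within a sex and lateral pieces of both sides counted as replicates, so p-values treat pieces of 1 animal as independent. DESeq2 1.42.0 was an alternative. Of 23725 transcripts, 15104 (63.7%) were joined to genes through RefSeq, giving 19291 units, and no coordinates are printed because the builds differ. Sequences of the receptor were not used here. Libraries of the same animal share a number in the labels, and their deviations from the group means correlated at 0.405 in females and 0.263 in males, against -0.101 and -0.0522 between animals. Counts carry no molecular identifiers, so depth limits cover counting error only. The script was tested on simulated data. With 200 transcripts changed by a log2FC of 3, it recovered 66% in female MA minus MP and 76.5% in MP between the sexes. Smaller changes were not simulated.

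The named transcripts were the receptor, the other transcripts of its gene, matched pathway members, and the 5 closest transcripts by correlation, with and without the animal means. The transcript, the lists and the rule were chosen with earlier results of these data known.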

Additional observations from a re-analysis of the deposited data

Results flagged for a closer look

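Among 28 sets of values for animals of 1 sex that were searched for a single animal far from the others, 4 had one. For independent, normally distributed values the rule flags about 1 set in 20. These sets share animals and were not on a log scale, so 4 flags are no measure of an excess. Female 2 was low in LatP, with a receptor gene sum of 2.99 CPM, and female 3 was high in MA, with 5.33 CPM. Female 4 had the only left to right ratio of LatP above 1 among females, 1.64. Male 4 had a left to right ratio of 4.99 in LatP, while the other 5 males stayed at or below 1.45.

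The mean MP to MA change of the gene sum was higher in males than in females, by 1.95 on the log2 scale over 11 animals. This comparison was added after the values had been seen, so its exact permutation test is a description. The ratio was above 1 in 6 of 6 males and 4 of 5 females. The interaction term of edgeR did not pass over all genes, for the gene sum (1.94, adjusted p = 1.00) or for X4 (0.93, adjusted p = 1.00), and the female change itself did not pass (-0.49, SE 0.372, adjusted p = 0.907).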

How the results depend on the processing

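In males the gene sum contrast of MA and MP was not planned as a test of its own. It passed under every alternative tried, with adjusted p from 2.04e-07 in DESeq2 to 0.0207 in edgeR without male 4. Its log2FC ranged from -2.20 to -2.55 as single males were left out. X4 in the same contrast ranged from -2.29 to -2.80, and passed in DESeq2 (-2.64), as a gene sum (-2.44) and without male 6.

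Library totals in place of TMM, an alternative added after the data were seen, made female LatA minus LatP pass for X4 (-2.12) and for the gene sum (-1.07), and moved the LatP sex difference to 1.302. With the permutation test of the MP to MA ratio they gave 1.84 (exact permutation p = 0.00216). The male LatA minus LatP value moved to -3.05 as a gene sum.

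Values near 0 turned sign. Female LatP minus MP was 0.34 for X4 and 0.36 for the gene sum with library totals. Without single females it ranged from -0.29 to 0.16 for X4 and from -0.24 to 0.0512 for the gene sum. Female LatA minus MA of X4 was -0.0723 with library totals and -0.18 as a gene sum, and ranged from -0.60 to 0.99 as single females were left out. The MA sex difference was -0.61 as a gene sum, LatA between the sexes ranged from -0.61 to 0.0781, female LatP left minus right was -0.17 as a gene sum, and male LatA left minus right ranged from -1.11 to 0.40. The causes were not tested.

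With the animal as replicate block, female LatP minus MP was 0.0726 for X4 and 0.0207 for the gene sum, and 0.14 and 0.0424 with both sides added together as well. The block changed no call. The interaction of sex with the gene sum change from MA to MP was 1.92 with the block (unadjusted p = 0.00043, edgeR adjusted p = 0.164).

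Anterior libraries held as few as 11 receptor counts, so X4 levels there rest on the division of a few reads.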
